A study of Mus musculus with 6 samples.

Results

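The proteins of mitochondrial respiratory complexes do not come together on their own. Assembly factors are proteins that insert cofactors, hold partly built intermediates or help translate the mitochondrially encoded core subunits, and most of them are absent from the finished enzyme. They are known in muscle because inherited loss of many of them leaves a respiratory complex deficient. The genes described here are 42 such factors of complexes I, III, IV and V, which were taken by gene symbol from a written list. All 42 symbols occurred among the 27179 genes counted, and 40 of them had enough counts to be tested. By complex, 14 of the 42 act on complex I (NADH dehydrogenase), 6 on complex III (cytochrome bc1 complex), 20 on complex IV (cytochrome c oxidase) and 2 on complex V (ATP synthase).

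RNA was sequenced from the quadriceps muscle of 3 control mice, labelled Control f/f (replicates B, C and D), and of 3 miDrp1KO mice (replicates A, E and F). The miDrp1KO mice carried floxed Drp1 (*Dnm1l*) alleles and HSA-MerCreMer, a tamoxifen-activated Cre recombinase driven by the human skeletal actin (*ACTA1*) promoter, which is active in muscle fibres and not in the other cells of the tissue. Control mice carried floxed alleles, with no Cre named for them, and also received tamoxifen. The floxed line had been backcrossed to C57BL/6J. According to the methods, tamoxifen was injected at 3 months of age and the mice fed normal chow were male. The paper's results place the RNA sequencing at 3 weeks after the deletion. Animal numbers in the labels differ between all 6 libraries, so each replicate is a separate mouse. The comparison asks whether losing the mitochondrial fission protein Drp1 in adult muscle is accompanied by a different level of assembly factor transcripts.

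Promoters are shown first, because the assembly factors were grouped by what their proteins do and the promoter is a feature that the grouping did not use. RefSeq promoters on GRCm38.p6, from 250 bases before to 50 bases after the gene start, were matched by symbol for 37 of the 42 genes (39 promoters). None was matched for *Coa6*, *Cox18*, *Acad9*, *Ndufaf6* and *Cox17*. The motif cores of 3 regulators known from respiratory chain promoters were searched on both strands, namely CCGGAAGT for ETS factors such as GABP (NRF2), AAGATGGC for YY1 and TGCGCATG for NRF1. The ETS core was found in 7 of the 39 promoters (17.9%) and in 3.89% of all 32851 promoters in the table. Windows of 30 bases are given for each match that ends before the gene start, and the capitals mark the core, which reads ACTTCCGG where it lies on the strand opposite to the gene.
Bcs1l (chr1:74588231-74588260, plus strand): ggtgggtgtggCCGGAAGTagatgcagcag
Cmc1 (chr9:118150197-118150226, minus strand): gcaggcgtagaacaaaCCGGAAGTaggaac
Cox10 (chr11:64079481-64079510, minus strand): agcgctgggagCCGGAAGTgacaagaggaa
Cox16 (chr12:81485138-81485167, minus strand): gctcagaagcctcgACTTCCGGgggaggga
Timmdc1 (chr16:38522790-38522819, minus strand): gccgccaactcACTTCCGGggctcgactga
Timmdc1 (chr16:38522664-38522693, minus strand): ccggtctcctttccgagagcttCCGGAAGT
*Cox14* and *Cox15* held the ETS core after the gene start, 34 and 7 bases downstream. The second *Timmdc1* window lies inside the annotated gene (chr16:38497843-38522778), so the promoter start used for *Timmdc1* is within the gene.

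The YY1 core was found in 6 of the 39 promoters (15.4%, against 2.75% of all promoters), those of *Atpaf2*, *Cox10*, *Cox20*, *Ndufaf8*, *Tmem126b* and *Uqcc2*, and in 5 of these it lay just after the gene start. The NRF1 core was found in 2 of the 39 (5.13%, against 2.12%), those of *Ndufaf4* and *Uqcc2*. The matches before the gene start are given in the same way, with the core in capitals. The *Cox20* window lies inside the annotated gene (chr1:178318095-178322693), so the promoter start used for *Cox20* is within the gene.
Cox20, YY1 (chr1:178319067-178319096, plus strand): gaacgctccctAAGATGGCcgccgccgcgc
Ndufaf4, NRF1 (chr4:24897958-24897987, plus strand): gcccagatgtcTGCGCATGcgcctgtgcgg
Uqcc2, NRF1 (chr17:27133957-27133986, minus strand): gttggtagaacTGCGCATGtccacggggaa
The promoters of the assembly factors had a median GC content of 61.3% and a median of 22 CpG dinucleotides, against 52.7% and 7 over all promoters. A match says only that these letters lie in the window, and the shares are descriptions without a test.

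Libraries held 13989588 to 62042255 counts, and Spearman correlations between them over the tested genes ran from 0.960 to 0.985. *Dnm1l*, the deleted gene, was at 156, 114 and 140 CPM (normalised read counts, scaled to library sizes that were adjusted by TMM) in controls B, C and D, whereas miDrp1KO mice A, E and F had 70.6, 81.3 and 66.2 CPM. The groups did not overlap for *Dnm1l* (log2 fold change -0.91, edgeR adjusted p = 0.362, exact permutation p = 0.1, the smallest that 3 mice against 3 allow). Ribosomal RNA took 1.48 to 24.4% of a library, with replicates A and F of miDrp1KO (23.0 and 24.4%) and control replicate B (15.6%) highest. Skeletal muscle fibre markers were high in every library, at a sum of 125577 to 177220 CPM in controls and 61017 to 132964 CPM in miDrp1KO mice. *Ttn* weighs most in that sum. None of these 5 markers had an unadjusted edgeR p under 0.05, and their log2 fold changes ran from -0.90 (*Ttn*) to 0.67 (*Mb*). The summed slow fibre markers (*Myh7*, *Myl2*, *Tnnt1*, *Tnni1* and *Tnnc1*) ranged from 12.4 to 258 CPM in controls and from 14.8 to 469 CPM in miDrp1KO mice, with control B and miDrp1KO E and F high. The summed fast fibre markers were 102507 to 117616 CPM in controls and 47767 to 86801 CPM in miDrp1KO mice, a sum in which *Myh4* and *Tnnt3* weigh most. Of these 5 markers only *Myh4* had an unadjusted edgeR p under 0.05 (log2 fold change -1.29), and *Pvalb* was at 0.03. The summed adipocyte markers were 301 to 421 and 226 to 275 CPM. In bulk muscle, fewer cells of a type and less RNA per cell cannot be told apart. The libraries were sequenced in pools, and since the labels do not say which library was in which pool, pool and group cannot be told apart.

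The summed levels of the assembly factors of each complex differed between the groups by less than the spread among miDrp1KO mice. For complex I, the CPM of the 14 factors summed to 288 ± 13.1 in controls and 288 ± 37.6 in miDrp1KO mice (SD, n = 3 per group here and below). For complex III the sums were 247 ± 26.7 and 244 ± 32.4 CPM, for complex IV 460 ± 7.91 and 463 ± 37.9 CPM, and for complex V 28.0 ± 1.62 and 26.3 ± 4.09 CPM. Abundant members weigh most in such a sum, and *Coa5* alone held 122 ± 6.79 of the CPM of complex IV in controls. The spread among miDrp1KO mice was wider than among controls for each of the 4 sums, and replicate F had the highest sum for complexes I (331 CPM), III (281 CPM) and IV (501 CPM).

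No assembly factor passed the test at an adjusted p under 0.05 (edgeR quasi-likelihood test, Benjamini-Hochberg adjustment over the 16483 genes tested), where 0.0121% of all tested genes did. The lowest adjusted p of the 40 was 0.392. DESeq2 called none of the 17 factors to which it gave an adjusted p (lowest 0.354), with 2.55% called among all genes given one, and limma voom called none of the 40 and 1 of all 16483 tested genes. At an unadjusted edgeR p under 0.05, 3 of the 40 were higher in miDrp1KO mice (*Ndufaf8*, *Cox14* and *Coa6*), where 4.68% of all tested genes were, and 2 were lower (*Cox15* and *Coa7*), where 6.22% were. The libraries of both groups did not overlap for 3 factors that were higher (*Ndufaf8*, *Tmem126b* and *Cox14*; 7.67% of all tested genes) and for 3 that were lower (*Cox15*, *Coa7* and *Coa5*; 10.3% of all tested genes). These shares are near the background over all genes. The log2 fold change, miDrp1KO over control, was above 0 for 24 factors and below 0 for 16, with a median of 0.05 beside 0.02 over all tested genes.

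The 95% intervals show how large a difference these 6 mice leave room for. For 37 of the 40 factors the whole interval of the log2 fold change lay between -1 and 1, so a doubling or halving was outside it, and the exceptions were *Ndufaf8*, *Lyrm7* and *Coa6*. For 7 factors it lay between -0.5 and 0.5. The median distance from the estimate to the end of its interval was 0.42. *Cox15* had the narrowest interval, at -0.75 to -0.09, and those of *Ndufaf4* (-0.33 to 0.33), *Coa7* (-0.76 to -0.08) and *Foxred1* (-0.36 to 0.33) were close to it in width.

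**Figure D1:**
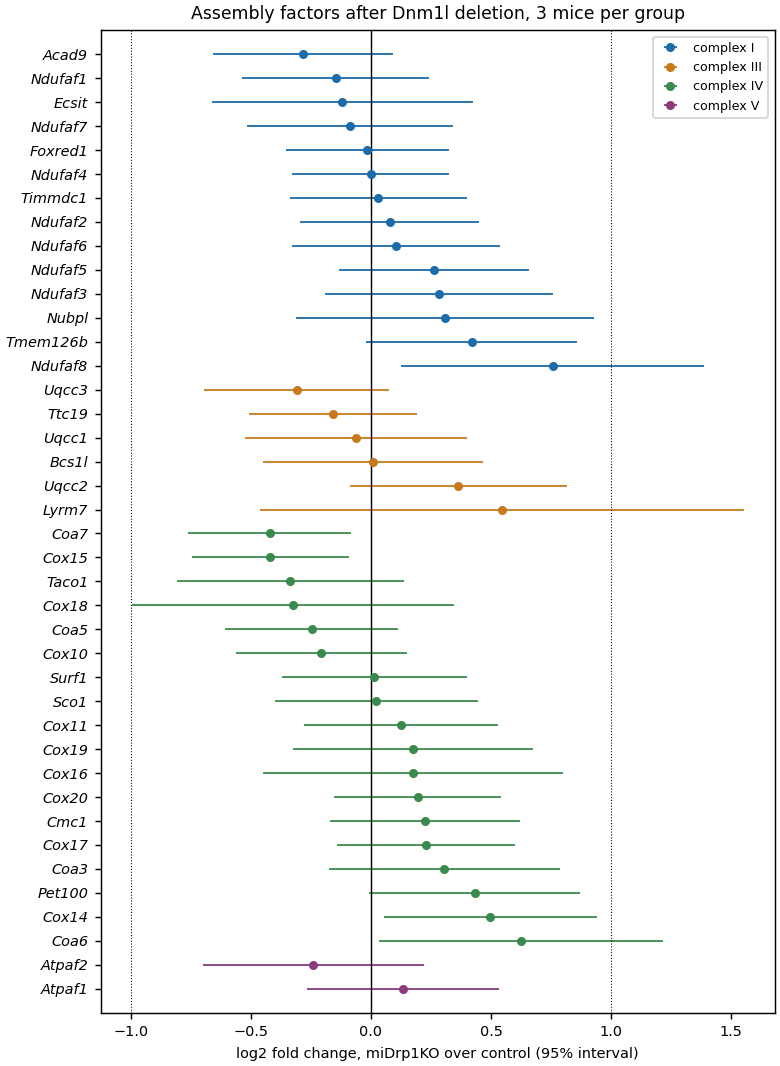
Log2 fold change of the 40 tested assembly factors, miDrp1KO over control (horizontal axis), with the edgeR estimate as a point and its 95% interval as a line, coloured by complex and ordered within it. Dotted lines mark -1 and 1. The intervals of Ndufaf8, Cox14 and Coa6 lie above 0 and those of Cox15 and Coa7 below 0, and only Ndufaf8, Lyrm7 and Coa6 reach past 1.

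Complex I is built from modules, and the mitochondrial complex I intermediate assembly (MCIA) complex builds part of its membrane arm. Of its factors, *Tmem126b*, a membrane protein of that complex (chr7:90468833-90475995), was measured at 8.76, 12.8 and 8.11 CPM for controls B, C and D, and at 13.0, 12.8 and 13.6 CPM for miDrp1KO mice A, E and F. The groups did not overlap, although control C reached nearly the level of miDrp1KO E. The mean was 9.90 ± 2.56 CPM in controls and 13.1 ± 0.393 CPM in miDrp1KO mice (log2 fold change 0.42, SE 0.20, edgeR adjusted p = 0.476). Leaving out 1 replicate at a time or correcting for length and GC content moved the log2 fold change of *Tmem126b* between 0.31 (without control D, unadjusted edgeR p of 0.212) and 0.62 (without control C, unadjusted p of 0.0081). *Ecsit*, an adaptor protein that also serves in innate immune signalling, was at 57.0 ± 5.58 CPM in controls. In miDrp1KO mice *Ecsit* was at 36.6, 45.8 and 75.2 CPM for mice A, E and F, which spans the control range on both sides. *Acad9*, a relative of the fatty acid dehydrogenases that serves here as an assembly factor, was at 25.5 ± 3.53 and 20.96 ± 2.80 CPM, and 6.82% of its exonic bases are shared with another gene on the same strand. *Ndufaf1*, a chaperone of the module, was at 32.2 ± 6.76 and 29.1 ± 2.18 CPM. *Timmdc1*, which is related to protein import subunits, was at 28.4 ± 2.94 and 29.1 ± 4.64 CPM. Across the 5 MCIA factors 2 log2 fold changes were above 0 and 3 below, with a median of -0.12.

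Among the other complex I factors, *Ndufaf8* (chr11:120098934-120100424) stood out by its difference. *Ndufaf8* is a small partner protein of *Ndufaf5*, which hydroxylates a subunit of the matrix arm. It was measured at 2.08, 1.97 and 2.08 CPM in controls B, C and D, and at 2.58, 3.14 and 4.70 CPM for miDrp1KO mice A, E and F. All 3 miDrp1KO libraries were above all controls, which lay close together, and replicate F was highest. The means were 2.04 ± 0.0664 and 3.47 ± 1.10 CPM, with a log2 fold change of 0.76 (SE 0.29, edgeR adjusted p = 0.402). These values rest on 27 to 128 reads per library. Without miDrp1KO replicate F the log2 fold change was 0.51 at an unadjusted edgeR p of 0.105, without replicate A it was 0.95 at an unadjusted p of 0.0087, and with length and GC correction it was 0.49 at an unadjusted p of 0.0758.

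*Ndufaf5* itself was at 19.6 ± 3.30 CPM in controls and 23.5 ± 3.40 CPM in miDrp1KO mice. *Ndufaf7*, which methylates another matrix arm subunit, was at 12.5 ± 1.55 and 11.8 ± 2.31 CPM. *Ndufaf3* and *Ndufaf4* act together on the module that binds ubiquinone. *Ndufaf3* was at 6.41 ± 0.615 and 7.81 ± 1.93 CPM, while *Ndufaf4* was at 53.4 ± 3.59 and 53.4 ± 1.93 CPM. *Nubpl*, which delivers iron-sulfur clusters to complex I, was at 2.48 ± 0.486 and 3.05 ± 0.603 CPM. *Foxred1*, an oxidoreductase-like factor, was at 12.9 ± 0.529 and 12.8 ± 0.524 CPM. *Ndufaf2*, a late factor, was at 10.5 ± 0.389 and 11.1 ± 1.32 CPM, and 1955 of its exonic bases are overlapped by *B230220B15Rik* on the opposite strand. *Ndufaf6* was at 15.3 ± 1.06 and 16.4 ± 4.34 CPM. For these 9 factors the median log2 fold change was 0.10, with 6 above 0, and the libraries of both groups overlapped for all of them but *Ndufaf8*.

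**Figure D2:**
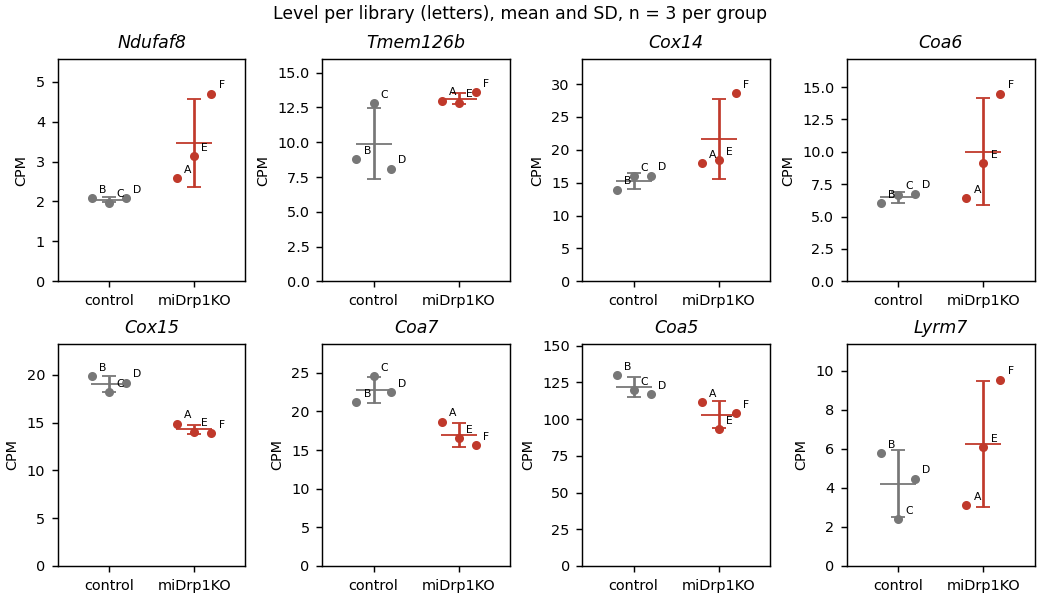
Level of 8 assembly factors in each library in CPM (vertical axis from 0), with the library letter beside each point and horizontal bars for the group mean and SD of 3 mice. For Ndufaf8, Cox14, Coa6 and Lyrm7 the highest point is miDrp1KO replicate F, while the 3 miDrp1KO points of Cox15, Coa7 and Coa5 lie below all control points.

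Complex III is finished by inserting the Rieske iron-sulfur protein, the step in which *Bcs1l*, *Lyrm7* and *Ttc19* act. *Lyrm7*, which holds the Rieske protein in the matrix before insertion (chr11:54826866-54860921), is named here after its values were seen, because it was the least precisely measured factor. It was at 5.78, 2.405 and 4.48 CPM for controls B, C and D, and at 3.11, 6.08 and 9.55 CPM for miDrp1KO mice A, E and F. The groups overlapped, with miDrp1KO A below 2 of the controls. The log2 fold change was 0.55 with a 95% interval of -0.46 to 1.55 (edgeR adjusted p = 0.684). It was 0.88 without miDrp1KO A and 0.14 without miDrp1KO F. The slow fibre markers were high in the same libraries in which *Lyrm7* was high (control B, miDrp1KO E and F), and once that marker score entered the fit as a covariate the log2 fold change of *Lyrm7* was 0.07. Both *Lyrm7* and this covariate were chosen after the values were seen, and the part of fibre type in its level was not tested. *Bcs1l*, the ATPase that moves the folded Rieske protein across the inner membrane, was at 16.6 ± 1.57 CPM in controls and 16.8 ± 4.75 CPM in miDrp1KO mice. *Ttc19*, which helps clear cleaved Rieske fragments, was at 75.7 ± 8.73 and 67.9 ± 1.56 CPM.

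*Uqcc1*, *Uqcc2* and *Uqcc3* act earlier, on the synthesis and stability of cytochrome b. *Uqcc1* was at 75.8 ± 19.5 CPM in controls and 72.6 ± 9.50 CPM in miDrp1KO mice. *Uqcc2*, its binding partner, was at 37.0, 50.1 and 41.5 CPM for controls B, C and D, and at 44.7, 49.1 and 71.6 CPM for miDrp1KO mice A, E and F, and replicate F was the only library far above the others (log2 fold change 0.36, edgeR adjusted p = 0.551). *Uqcc3*, a further partner, was at 31.8 ± 2.78 and 25.7 ± 4.95 CPM (log2 fold change -0.31, edgeR adjusted p = 0.550). With length and GC correction *Uqcc3* was at -0.55 with an unadjusted edgeR p of 0.0055, the lowest of the factors under that correction, and *Uqcc2* was at 0.11. Of the 6 complex III factors, 3 log2 fold changes were above 0 and 3 below, and the libraries of both groups overlapped for each.

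Complex IV needs heme A, which is made in 2 steps. *Cox10* makes heme O from heme B, and *Cox15* turns heme O into heme A. *Cox15* (chr19:43733254-43753000) was at 19.9, 18.2 and 19.2 CPM for controls B, C and D, and at 14.9, 14.1 and 13.9 CPM for miDrp1KO mice A, E and F. Every miDrp1KO library was below every control in CPM, and the spread within each group was small. The means were 19.1 ± 0.837 and 14.3 ± 0.513 CPM, a log2 fold change of -0.42 (SE 0.15, edgeR adjusted p = 0.392, the lowest among the assembly factors). The place of miDrp1KO E rests on its TMM factor of 1.42. Before scaling, E held 574 *Cox15* reads of 28829756 counts, a larger share than the 420 of 25170274 in control B. Without replicate E the log2 fold change of *Cox15* was -0.41. The sign was the same in all 16 alternative fits, with an unadjusted p under 0.05 in 14 of them (not without control B or without control D), and the adjusted p ran from 0.234 to 0.877 (DESeq2 gave none for *Cox15*). The exonic bases of *Cox15* include 444 that lie opposite exons of *Entpd7*. *Cox10* was at 27.1 ± 3.83 CPM in controls and 23.5 ± 1.88 CPM in miDrp1KO mice (log2 fold change -0.21, edgeR adjusted p = 0.670), with overlapping libraries.

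Copper reaches the catalytic core of complex IV through a chain of small proteins. *Cox17* hands copper to the others and was at 26.9 ± 1.75 CPM in controls and 31.5 ± 5.79 CPM in miDrp1KO mice. *Sco1*, which metallates the copper site of the subunit COX2, was at 9.63 ± 1.70 and 9.81 ± 1.12 CPM. *Coa6*, a thiol reductase that assists at the same site (chr8:126422501-126425435), was at 6.01, 6.70 and 6.76 CPM for controls B, C and D, and at 6.42, 9.14 and 14.5 CPM for miDrp1KO mice A, E and F. The controls lay close together, miDrp1KO A lay among them, and E and F were above them all. The means were 6.49 ± 0.417 and 10.02 ± 4.11 CPM (log2 fold change 0.62, SE 0.27, edgeR adjusted p = 0.440). Without replicate F the log2 fold change of *Coa6* was 0.29 at an unadjusted edgeR p of 0.223, without replicate A it was 0.88 at an unadjusted p of 0.0036, and with length and GC correction it was 0.31 at an unadjusted p of 0.173. *Cox11*, which serves the copper site of COX1, was at 10.6 ± 0.979 and 11.6 ± 1.95 CPM, and 688 of its exonic bases lie opposite *Tom1l1*. *Cox19*, its partner, was at 8.31 ± 2.18 and 9.38 ± 1.68 CPM. The log2 fold changes of these 5 tested copper factors ran from 0.02 for *Sco1* to 0.62 for *Coa6*, with a median of 0.17. With length and GC correction *Sco1* was at -0.08 and *Cox11* at -0.02.

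*Sco2*, the relative of *Sco1*, was listed at 0 counts in all 6 libraries, and so was *Pet117*, a factor linked to heme A synthesis. By the GENCODE annotation of GRCm38, 100% of the 693 exonic bases of *Pet117* are shared with *Kat14* on the same strand, and 68.3% of the 1253 exonic bases of *Sco2* are shared with *Tymp*, with a further overlap by *Ncaph2* on the opposite strand. How reads on overlapping genes were counted is not given in the sources used here. A listed 0 of *Sco2* or *Pet117* is therefore not read as a transcript level. The same overlap touches 56.8% of the exonic bases of *Cox16* (shared with *Gm20498*), which was nevertheless counted at 757 to 2391 reads per library.

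Synthesis of COX1, the first core subunit of complex IV to be built, is tied to its assembly by *Cox14* and *Coa3*. *Cox14* (chr15:99725618-99728136) was at 13.9, 16.0 and 16.1 CPM for controls B, C and D, and at 17.9, 18.4 and 28.7 CPM for miDrp1KO mice A, E and F. All miDrp1KO libraries were above the controls, replicates A and E by a small margin and replicate F by a wide one. The means were 15.3 ± 1.22 and 21.7 ± 6.05 CPM (log2 fold change 0.50, SE 0.20, edgeR adjusted p = 0.417). Without replicate F the log2 fold change of *Cox14* was 0.27 at an unadjusted edgeR p of 0.111, without replicate A it was 0.64 at an unadjusted p of 0.013, and with length and GC correction it was 0.21 at an unadjusted p of 0.214. *Coa3*, which binds *Cox14*, was at 29.7, 28.6 and 32.8 CPM for controls B, C and D, and at 29.0, 31.4 and 52.5 CPM for miDrp1KO mice A, E and F, so only replicate F lay above the controls. *Cmc1*, which stabilises COX1 together with these proteins, was at 8.08 ± 1.10 and 9.40 ± 0.519 CPM. *Surf1*, an early factor whose loss causes Leigh syndrome in humans, was at 18.5 ± 1.40 and 18.7 ± 3.60 CPM. *Taco1*, the translational activator of COX1, was at 32.7 ± 9.44 and 25.9 ± 3.67 CPM (log2 fold change -0.34, edgeR adjusted p = 0.589), and at a log2 fold change of -0.48 with length and GC correction.

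COX2 is inserted with the help of *Cox18*, *Cox20* and *Cox16*. *Cox20*, its chaperone, was at 35.5 ± 2.75 CPM in controls and 40.6 ± 4.85 CPM in miDrp1KO mice, and 804 of its 883 exonic bases lie opposite *Hnrnpu*. *Cox18*, which moves a part of COX2 across the inner membrane, was at 3.61 ± 0.877 and 2.94 ± 1.07 CPM. *Cox16* was at 35.8, 56.6 and 39.8 CPM for controls B, C and D, and at 70.4, 34.0 and 44.9 CPM for miDrp1KO mice A, E and F. The highest and the lowest library for *Cox16* were both miDrp1KO mice.

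The remaining complex IV factors hold the other pair with lower CPM in every miDrp1KO mouse. *Coa7*, a protein of the intermembrane space (chr4:108328152-108340718), was at 21.2, 24.6 and 22.5 CPM for controls B, C and D, and at 18.7, 16.6 and 15.6 CPM for miDrp1KO mice A, E and F. The groups did not overlap, and the means were 22.7 ± 1.71 and 17.0 ± 1.55 CPM (log2 fold change -0.42, SE 0.15, edgeR adjusted p = 0.393). Here too the place of miDrp1KO E rests on its TMM factor. Before scaling, E held 676 *Coa7* reads of 28829756 counts, a larger share than the 447 of 25170274 in control B. Without replicate E the log2 fold change of *Coa7* was -0.41. For *Coa7* the sign was the same in all 16 alternative fits, with an unadjusted p under 0.05 in 14 (not without control C or without control D), and the adjusted p ran from 0.198 to 0.877 (DESeq2 gave none for *Coa7*). *Coa5*, an early factor (chr1:37417085-37430103), was the most counted of all the factors, at 1640 to 7022 reads per library. Its level was 130, 120 and 117 CPM for controls B, C and D, and 111, 93.1 and 104 CPM for miDrp1KO mice A, E and F. Although the groups did not overlap, the log2 fold change of *Coa5* was -0.25 (SE 0.16, edgeR adjusted p = 0.606), with an unadjusted p above 0.05 in all 16 alternative fits. The order of miDrp1KO E again rests on scaling, since its 3800 reads of 28829756 counts were a larger share than the 2741 of 25170274 in control B. *Pet100*, a small membrane-anchored factor, was at 15.9, 24.0 and 18.0 CPM for controls B, C and D, and at 26.4, 30.4 and 20.9 CPM for miDrp1KO mice A, E and F. The groups overlapped for *Pet100* (log2 fold change 0.43, edgeR adjusted p = 0.464), and 941 of its exonic bases lie opposite *Pcp2*.

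ATP synthase has a pair of factors in this list, which chaperone the subunits of its catalytic head. *Atpaf1*, which binds the beta subunit, was at 9.99 ± 0.585 CPM in controls and 11.0 ± 1.83 CPM in miDrp1KO mice. *Atpaf2*, which binds the alpha subunit, was at 18.0 ± 1.28 and 15.3 ± 4.51 CPM. The log2 fold changes were 0.13 and -0.24, with edgeR adjusted p = 0.823 and 0.708.

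The libraries did not contribute equally to these differences. Of the 40 tested factors, 20 were highest in miDrp1KO replicate F, where *Coa6*, *Lyrm7*, *Ndufaf8*, *Coa3* and *Cox14* stood furthest above the mean of the 6 libraries, and 10 were highest in control B. The lowest value fell in control B, control C or miDrp1KO E for 10 factors each. The median factor in replicate F lay 0.21 above its mean over the 6 libraries on the log2 CPM scale, beside 0.01 for the median of all tested genes. Replicate F also had the highest share of ribosomal RNA (24.4%) and high slow fibre markers (387 CPM). Without replicate F, 1 factor was higher and 5 were lower at an unadjusted edgeR p under 0.05, where 7.79% of all tested genes passed in either direction, and the median log2 fold change was 0.01. A fit with each library's ribosomal RNA share as covariate had 1 higher and 4 lower (8.34% of all tested genes passed), and a fit with the slow fibre score instead, chosen after seeing the data, had 3 higher and 3 lower (10.9% of all tested genes passed). No factor had an adjusted p under 0.05 in any of these 3 fits.

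**Figure D3:**
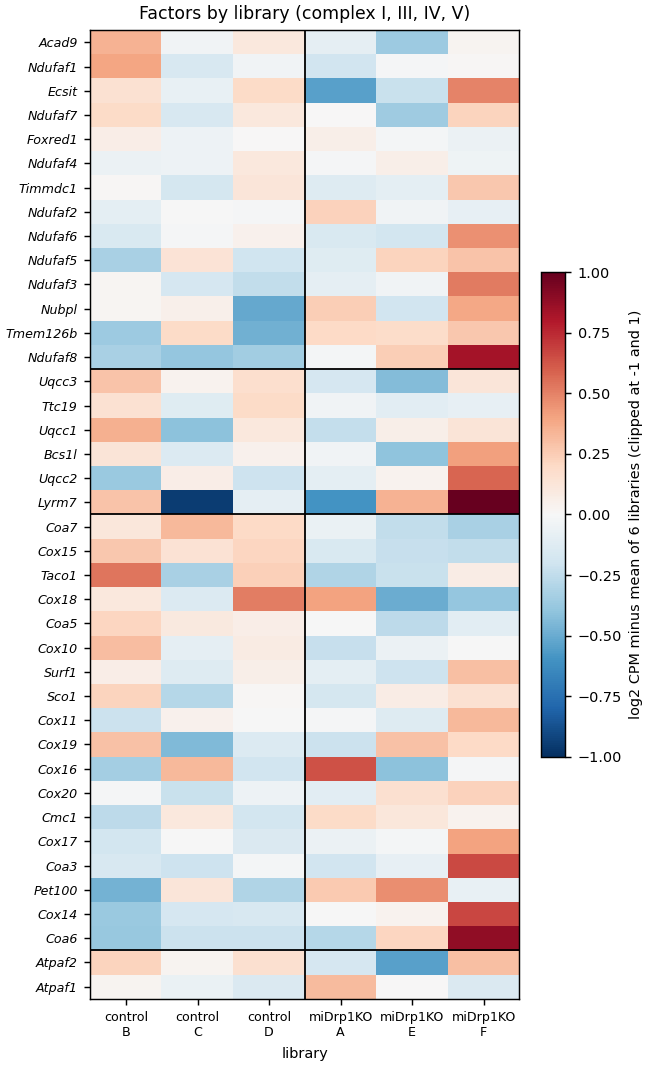
Deviation of each tested assembly factor (rows, grouped by complex) from its own mean over the 6 libraries (columns), in log2 CPM on a colour scale that stops at -1 and 1. The column of miDrp1KO replicate F holds the highest value of 20 of the 40 rows, while the rows of Coa7, Cox15 and Coa5 are higher in the 3 control columns.

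Transcripts of the assembly factors had lower median levels than those of the nuclear subunits of the same complex. Levels between genes are compared as CPM per kb of exon, averaged over the 6 libraries. This length merges all annotated exons of a gene and can exceed the length of its transcripts. On this scale the complex I factors had a median of 3.77 and the 36 nuclear complex I subunits a median of 60.4, a ratio of 16.0. The ratio was 9.27 for complex III (13.8 against 128 CPM per kb), 14.8 for complex IV (9.48 against 140 CPM per kb) and 8.34 for complex V (5.35 against 44.6 CPM per kb). Of the subunits, 31 of 36 in complex I, 6 of 8 in complex III, 11 of 14 in complex IV and 15 of 16 in complex V were above the highest factor of the same complex.

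Within the factors the level per kb spanned a 105-fold range. The highest was *Uqcc2*, the cytochrome b factor, at 58.6 CPM per kb, followed by the COX2 chaperone *Cox20* at 43.1, *Coa3* at 38.4, *Uqcc3* at 35.0 and *Cox14* at 25.6 CPM per kb. The lowest were the iron-sulfur delivery factor *Nubpl* at 0.557 CPM per kb, the Rieske protein chaperone *Lyrm7* at 1.04 and the insertase *Cox18* at 1.21 CPM per kb. For complex I the range ran from *Nubpl* to *Ecsit* at 22.0 CPM per kb, and for complex V from *Atpaf1* at 2.90 to *Atpaf2* at 7.80 CPM per kb. Of the 40 tested factors, 19 were above 10 CPM per kb.

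**Figure D4:**
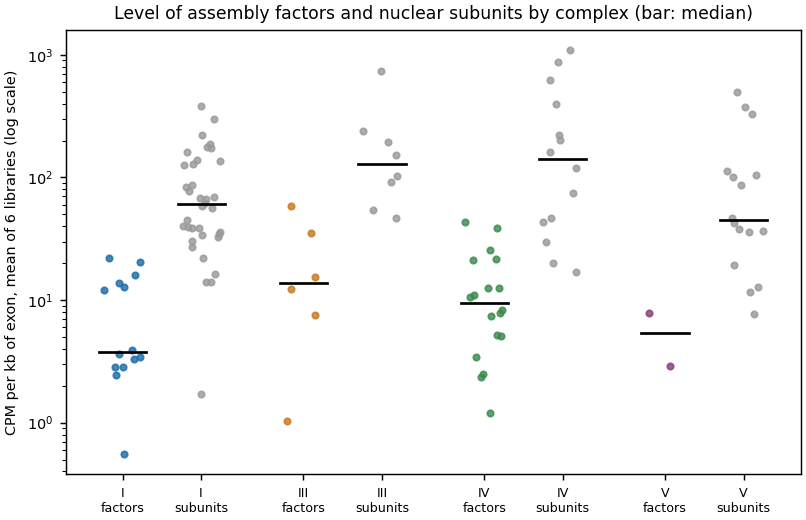
Level per kb of exon (CPM per kb, mean of 6 libraries, log axis) of the tested assembly factors (coloured) and nuclear subunits (grey) of each complex, with a bar at each median. The factor medians lie between 3.77 and 13.8 CPM per kb and the subunit medians between 44.6 and 140 CPM per kb.

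Other genes of the pathway were taken from 2 lists. Of 25 tested assembly and insertion factors outside the 42, 3 were higher and 1 was lower at an unadjusted edgeR p under 0.05, none passed at an adjusted p under 0.05, and the median log2 fold change was 0.05. Over all tested genes 4.68% were higher and 6.22% were lower at that threshold. Those higher were *Sdhaf4*, which helps assemble complex II (log2 fold change 0.90, edgeR adjusted p = 0.362), *Fmc1*, a complex V factor (0.72, adjusted p = 0.379), and *Slirp*, which stabilises mitochondrial transcripts (0.49, adjusted p = 0.424). The lower gene was *Gfer*, a sulfhydryl oxidase of the intermembrane space (-0.43, edgeR adjusted p = 0.407). Of 74 tested nuclear subunits of complexes I, III, IV and V, 59 log2 fold changes were above 0 with a median of 0.29, 18 were higher at an unadjusted edgeR p under 0.05, none were lower and none had an adjusted p under 0.05 (DESeq2 called 7, beside 2.55% of all genes to which it gave an adjusted p). By complex, the median log2 fold change of the subunits was 0.33 (I), 0.21 (III), 0.47 (IV) and 0.19 (V), and that of the assembly factors was 0.05, -0.03, 0.15 and -0.05. The count of 18 higher subunits became 9 without control D and 32 without miDrp1KO A, and 4 were lower without control C. The share of all tested genes passing in either direction moved from 10.9% to 5.36%, 17.5% and 10.5% in these 3 fits. With the slow fibre score as covariate, chosen after seeing the data, 16 subunits were higher and 4 lower (10.9% of all tested genes passed). Length and GC correction left 12 higher and 2 lower (11.7% of all tested genes passed). Without miDrp1KO replicate F the medians were 0.13 for all subunits and 0.01 for the assembly factors. The subunit medians by complex were then 0.14 (I), 0.02 (III), 0.24 (IV) and 0.06 (V). Under length and GC correction they were 0.17, -0.03, 0.24 and 0.09, and those of the factors -0.05, -0.09, -0.05 and -0.13. With the slow fibre score the subunit medians were 0.23, 0.05, 0.25 and 0.12, and 0.19 over all subunits. Whether subunits and factors differ was not tested.

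The log2 fold change moved with exonic length (all annotated exons of a gene merged), both in the assembly factors and in all genes. The 7 tested factors with under 1 kb of exon had a median log2 fold change of 0.36, and 6 of them were above 0. The median was 0.11 for the 10 factors of 1 to 2 kb, -0.0013 for the 13 of 2 to 4 kb and -0.04 for the 10 over 4 kb. Over all tested genes with a length the medians in the same classes were 0.26, 0.11, 0.02 and -0.03. The Spearman correlation of log2 fold change with exonic length was -0.30 over the 40 factors and -0.12 over 14833 genes, which share the same 6 libraries. The tested factors had a median of 2.60 kb of exon, the subunits 1.63 kb and all tested genes 4.47 kb. With a correction for length and GC content fitted in each library, the correlation over the factors was -0.11 and their median log2 fold change -0.07, beside -0.03 over all genes. After that correction no factor was higher and 4 were lower at an unadjusted edgeR p under 0.05 (*Uqcc3*, *Cox15*, *Coa7* and *Taco1*), near the 11.7% of all tested genes that passed in either direction, and the lowest adjusted p of a factor was 0.341. The subunits had a median of 0.12. *Cox15* and *Coa7*, with 4.91 and 3.85 kb of exon, were at -0.43 and -0.44 after the correction, close to their values before it. The part of exonic length in the higher values of *Ndufaf8*, *Cox14* and *Coa6*, which have little exonic sequence, was not tested further.

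**Figure D5:**
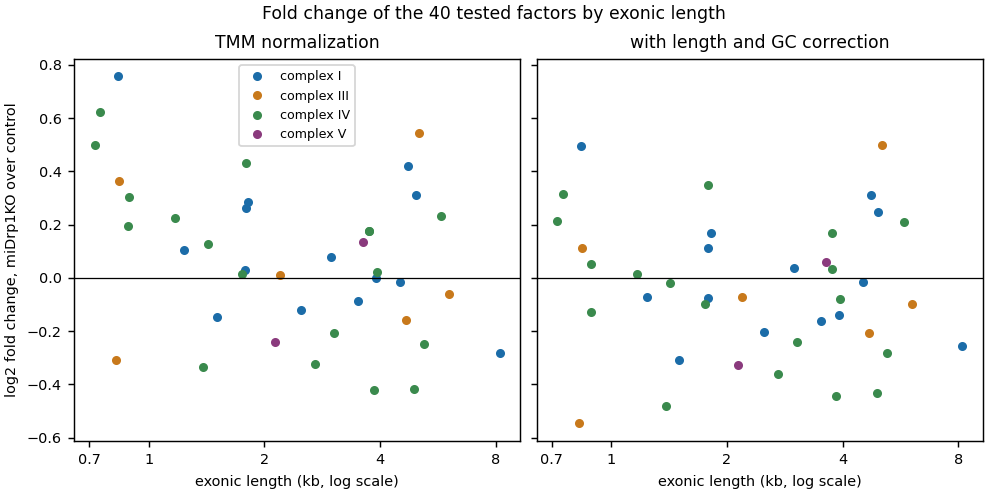
Log2 fold change of the 40 tested assembly factors, miDrp1KO over control (vertical axis), against exonic length in kb (log axis), with TMM normalization on the left and with length and GC correction on the right. On the left 6 of the 7 factors under 1 kb lie above 0, and the median of these 7 is 0.36 on the left and 0.11 on the right.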

How the data were processed

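Total RNA of quadriceps muscle from 3 control and 3 miDrp1KO mice was depleted of ribosomal RNA and sequenced by the authors as stranded libraries. Per the study's methods, Rsubread was used both to align the reads to GRCm38 and to count them, after a FastQC check. The authors deposited raw counts per gene by Entrez identifier, without normalization, at 13989588 to 62042255 counts per library. The 42 assembly factors and all gene lists were chosen with earlier results of these data known.

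Counts were tested here across the whole table with the robust quasi-likelihood fit of edgeR 4.0.16 under R 4.3.3. Low counts were removed by filterByExpr, library sizes were adjusted by TMM, and p-values were adjusted by Benjamini-Hochberg for the 16483 of 27179 genes that remained (threshold 0.05), a procedure tested on simulated data. The biological coefficient of variation was 0.252. CPM used TMM library sizes, and CPM per kb used exonic lengths from the GENCODE annotation of GRCm38. The CPM of *Dnm1l* was also compared by an exact permutation test (two-sided) of the 6 mice. Genes named with values in every library were *Dnm1l* and each factor with an unadjusted p under 0.05 or groups without overlap. The highest and lowest factor per kb of each complex were named as well, and *Lyrm7*, *Ecsit*, *Uqcc2*, *Coa3*, *Cox16* and *Pet100* were given by library after their values were seen. Promoters came from RefSeq.

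The 16 alternatives were DESeq2 1.42.0, limma 3.58.1 voom, normalization by RLE or by upper quartile, no filter, at least 10 counts in every library, ribosomal RNA genes and *Lars2* left out, ribosomal RNA share as a covariate, length and GC correction (natural splines with 5 degrees of freedom, 90.0% of tested genes with both values), 6 fits without 1 replicate each, and, added after seeing the data, the slow fibre score as a covariate. No library was left out of the main comparison.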

Additional observations from a re-analysis of the deposited data

How the results depend on the processing

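The number of assembly factors with an adjusted p under 0.05 was 0 in all 16 alternative fits, where 1 to 8 of all tested genes had one and DESeq2, which gave an adjusted p to 17 of the 40 factors, called 113. The number at an unadjusted p under 0.05 was 5, and leaving out 1 replicate at a time gave 0 to 8, with 0 without control D, 2 without control B and 8 without miDrp1KO A. The share of all tested genes at that threshold moved with it, from 10.9% to 5.36%, 8.80% and 17.5% in these 3 fits. The median log2 fold change was 0.05 and became -0.073 under length and GC correction, where all tested genes had -0.03. Upper quartile normalization raised the median over all tested genes from 0.02 to 0.11 and that of the factors to 0.14, so directions near 0 depend on the scaling.

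*Ndufaf8*, *Tmem126b*, *Cox14*, *Coa6*, *Cox15*, *Coa7*, *Coa5* and *Lyrm7* had the same sign in all 16 fits. *Ndufaf4*, *Ndufaf6*, *Timmdc1*, *Bcs1l*, *Surf1*, *Sco1*, *Cox11*, *Cox16* and *Cox20* changed sign under length and GC correction or with the ribosomal RNA covariate. *Cox15* and *Coa7* had an unadjusted p under 0.05 in 14 fits each, *Ndufaf8* in 11, *Cox14* in 9, *Coa6* in 7, and *Tmem126b*, which was at 0.0599 in the comparison reported, in 7. *Ndufaf8*, *Cox14* and *Coa6* each lost it with the ribosomal RNA covariate at log2 fold changes of 0.68, 0.41 and 0.57, close to 0.76, 0.50 and 0.62. They also lost it at 0.60, 0.44 and 0.42 with the slow fibre score, at 0.51, 0.27 and 0.29 without miDrp1KO F and at 0.49, 0.21 and 0.31 under length and GC correction, and the cause was not tested. Without control D all 5 factors with an unadjusted p under 0.05 lost it, at log2 fold changes close to those with it (*Ndufaf8* 0.79, *Cox14* 0.56, *Coa6* 0.68, *Cox15* -0.40 and *Coa7* -0.41). *Lyrm7* had it in 1 fit (without miDrp1KO A) and *Coa5* in none. No paired analysis was possible because the labels give the mice of the 2 groups no shared replicate letters. *Ndufaf8*, *Nubpl*, *Lyrm7* and *Cox18* were among the factors with the fewest reads, so their intervals limit what these libraries can show.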
